A study of Mus musculus with 6 samples.

Results

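Collagen genes were examined in mouse embryo fibroblast lines that differ in MDMX, a regulator of p53 encoded by Mdm4. The members were all identifiers whose mouse symbol is Col, a number, the letter a and a number, which gave 44 genes of the 49315 listed. They were sorted by the kind of assembly that their proteins form: 11 fibrillar chains, 6 chains of the basement membrane network, 3 of hexagonal networks, 9 fibril-associated collagens (FACIT), 6 of beaded filaments, 1 of anchoring fibrils, 2 multiplexins, 4 transmembrane collagens and 2 others. The lines labelled SG (SG1, SG2 and SG3) were homozygous for a knock-in of MDMX carrying W201S and W202G, which per the series title disrupts its binding to the kinase CK1-alpha, and those labelled WT (WT3, WT9 and WT11) had wild-type MDMX. Both genotypes were homozygous for loss of p53, so that no line had p53, and all lines were C57BL/6, untreated, grown in DMEM with serum and taken at passage 4. Each line came from 1 embryo, so n counts embryos. The substitutions cannot be seen in gene counts, and whether any embryos were littermates was not given in the sources used here.

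Collagens are secreted proteins in which chains wind into a trimeric helix. Fibrillar collagens are trimmed outside the cell and pack into fibrils, with type I as the bulk, type V starting new fibrils and type III beside them. Network collagens form sheets under epithelia and around vessels, FACIT collagens sit on fibril surfaces, and type VI forms fine beaded filaments next to cells. Fibroblasts are a main source of fibrillar and type VI collagen in connective tissue.

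Library totals ran from 49317925 to 65457242 counts, and 16068 genes, 36 of the 44 collagen genes among them, passed the count filter and were tested. Levels are counts per 1000000 counts of the library (CPM), scaled by TMM (trimmed mean of M values), a difference is a log2 fold change of SG over WT from edgeR's quasi-likelihood test with its standard error (SE), and adjusted p is the Benjamini-Hochberg value over the 16068 genes, with a threshold of 0.05. All 10 fibroblast markers were above 1 CPM in some line, among them Vim (vimentin) at 4282 to 4947 CPM. Of the 10, 0 passed as higher and 3 as lower in SG, against 0.809% and 1.1% of all genes tested. The 3 were Thy1, S100a4 and Prrx1 (log2 fold changes of -0.72, -0.99 and -0.43). The call was lost in 1 of 13 alternatives for Thy1 (without SG2, adjusted p = 0.0629), in 5 for S100a4 (without SG1, SG2, WT3 or WT11, or with a robust prior, adjusted p up to 0.169) and in 8 for Prrx1 (adjusted p up to 0.17). The 10 markers summed to 5129 to 5393 CPM in SG and 5995 to 6326 CPM in WT, and most of this sum was Vim. SG1 and WT9 expressed Xist, the transcript of the inactive X chromosome of female cells (399 and 343 CPM), and the other 4 lines had 0.565 to 0.700 CPM. In bulk RNA, fewer cells expressing a collagen and less collagen RNA per cell cannot be told apart.

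Collagen transcripts made up 1.87%, 1.65% and 1.98% of all counts in the SG lines (in the order SG1, SG2, SG3, as throughout) and 1.85%, 1.88% and 1.84% in the WT lines (in the order WT3, WT9, WT11). SG2 lay below the narrow WT range, SG3 above it and SG1 within it, so the total did not separate the genotypes. Type I collagen dominated: Col1a1 and Col1a2 together held between 51.2% and 59.1% of a line's collagen counts. In counts over all lines Col1a1 ranked 4 and Col1a2 ranked 8 among all 49315 genes, and the 8 most counted collagen genes held 91.1% of collagen counts. They were Col1a1, Col1a2, Col5a2, Col12a1, Col5a1, Col4a1, Col4a2 and Col3a1.

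Per kilobase of exon, the level of Col1a1 averaged 893 CPM over the 6 lines and that of Col1a2 averaged 329, and neither overlapped the gene below it in the order. Col4a1 (162), Col5a2 (159.7), Col5a1 (149.8) and Col4a2 (134) followed and each overlapped the next gene in the order. Below them came Col12a1 (91.1), Col6a1 (65.8), Col3a1 (60.4) and Col8a1 (59.8), whose lines overlapped from one gene to the next, while the lowest line of Col8a1 lay above every line of Col6a2 (23.5), the next gene. The exon length deposited for a gene joins all its annotated transcripts, which for Col1a2 is 12426 bases against 5348 for its longest coding transcript. With the latter, Col1a2 would stand at 763 and Col1a1 at 988 CPM per kilobase, so the distance between them depends on the length used. The plot of levels shows how far the 36 tested genes spread.

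**Figure D1:**
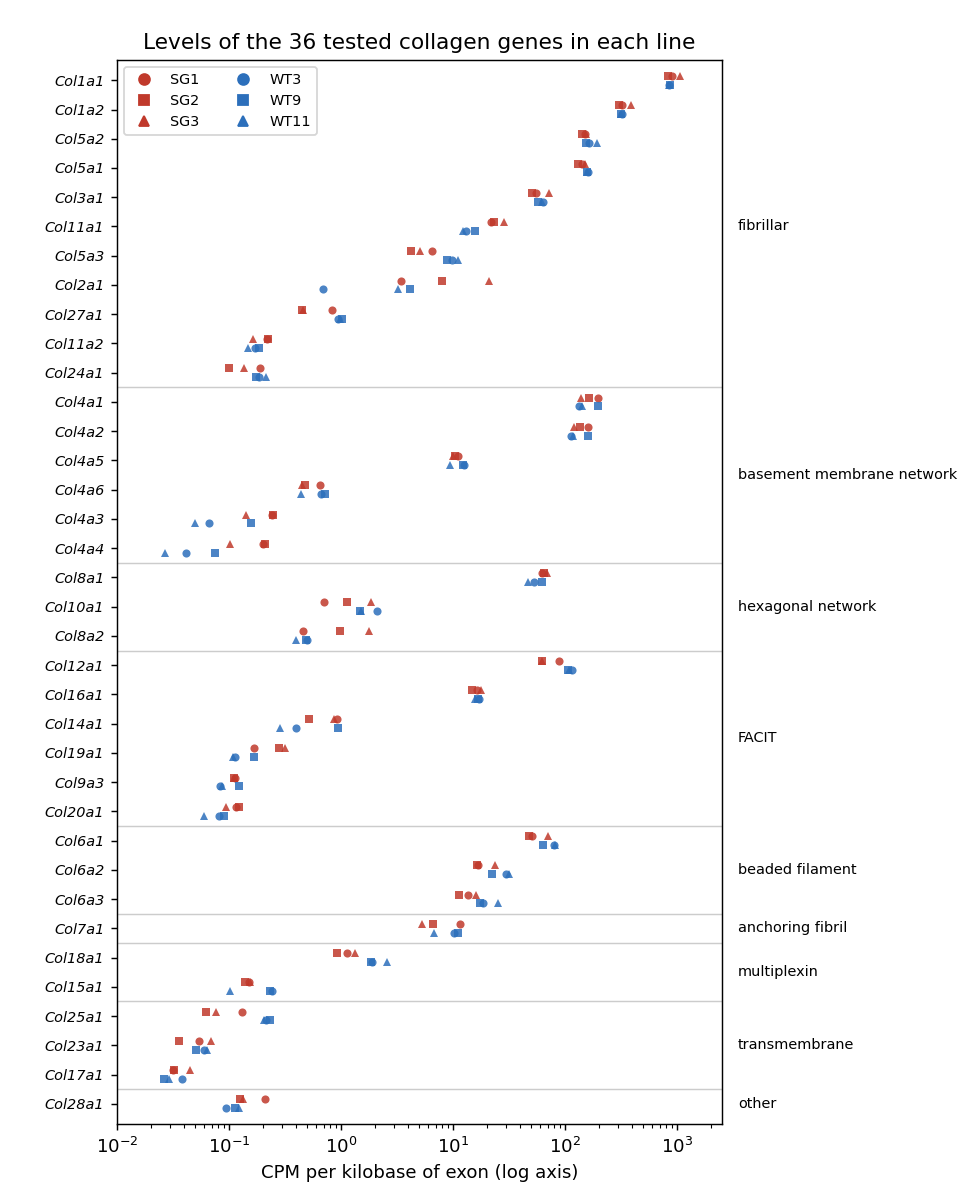
Level of each tested collagen gene in each line, as CPM per kilobase of exon on a log axis, with SG lines in red above WT lines in blue and genes grouped by assembly type. Type I chains lie at the top of the range, Col17a1 at the bottom, and Col2a1 has the widest spread between lines, from 0.69 to 20.95.

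Between genotypes 3 of the 36 tested collagen genes passed the threshold. Col11a1 rose in SG, and Col5a3 and Col18a1 fell. Over all genes the share past the threshold was 1.9% (0.809% higher and 1.1% lower in SG), against 3 of 36 here. The CPM of the genotypes did not overlap for 11 collagen genes, 4 higher and 7 lower in SG, where 21.2% of all tested genes did not overlap (10.0% higher and 11.2% lower). An unadjusted p below 0.05 was found for 17 of the 36, against 15.5% of all genes. Log2 fold changes were above 0 for 17 and below 0 for 19, with a median of -0.03 (0.00 over all genes tested). The median absolute log2 fold change was 0.42 against 0.09 over all genes tested. The median biological coefficient of variation between lines of a genotype, as estimated by edgeR, was also larger, 15.2% against 8.87%.

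These counts depended on single lines. With SG2, WT3 or WT11 left out, or with a robust prior, none of the collagen genes passed in edgeR, and few genes of any kind did so without those lines (3, 24 and 29). The robust prior left 1.46% of all genes past the threshold. Leaving out SG1 gave 3 higher and 4 lower of 39 tested (3.53% of all genes passed), leaving out WT9 gave 4 and 2 of 39 (2.82%), and leaving out SG3 gave 2 and 2 of 36 (1.35%). DESeq2 on the same genes called 3 higher and 5 lower of 36, and 5.81% of all genes. With Xist as a covariate 2 were higher and 5 lower of 36 (2.65% of all genes), and without the count filter 5 and 8 of 44 (3.33%). With both Xist-expressing lines, SG1 and WT9, left out, 6 were higher (Col11a1, Col19a1, Col4a3, Col4a4, Col8a1, Col8a2) and 5 lower (Col12a1, Col18a1, Col25a1, Col27a1, Col5a3) of 39 tested, when 4.36% of all genes passed. The plot of fold changes sets the whole family side by side.

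**Figure D2:**
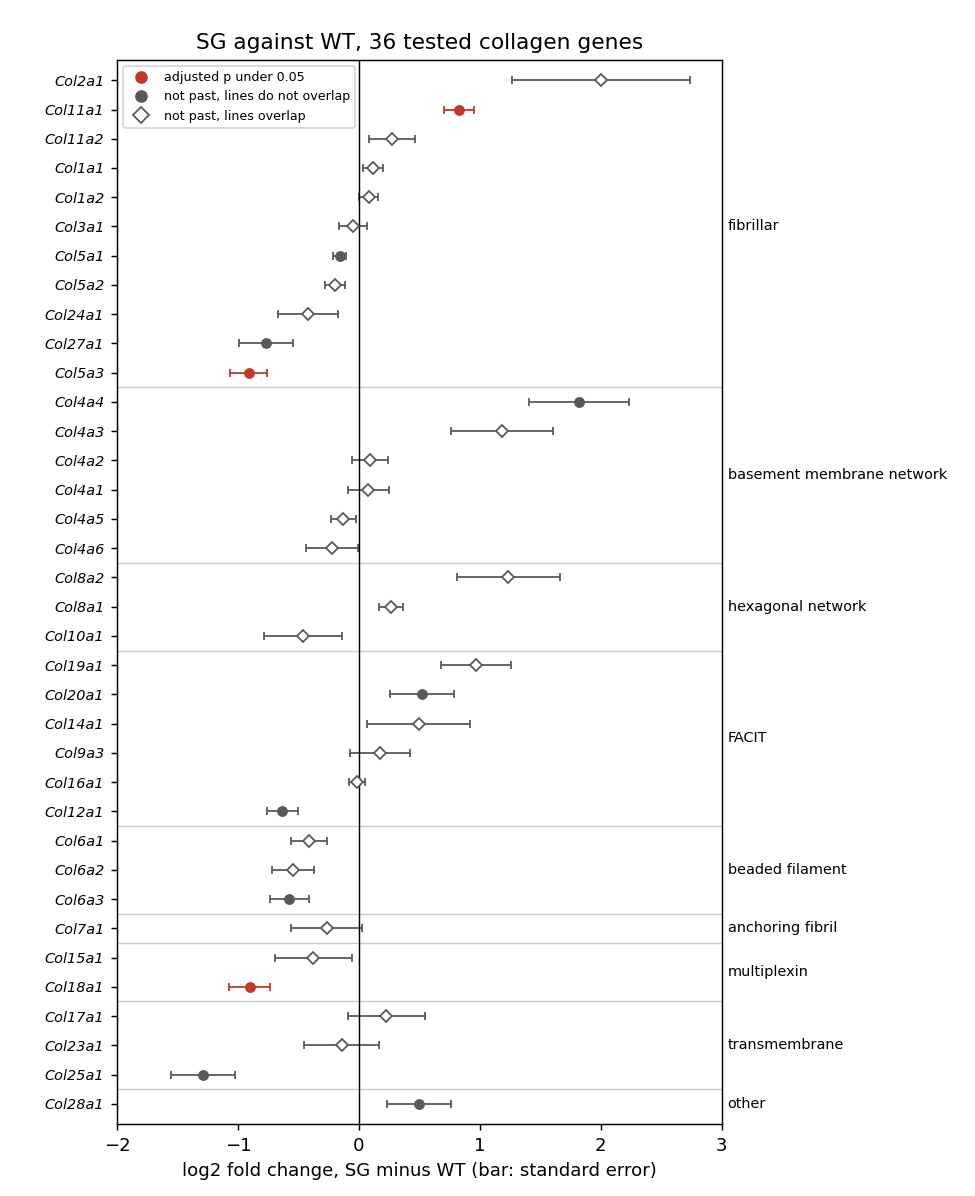
Log2 fold change of SG over WT with its standard error for the 36 tested collagen genes, grouped by assembly type. Filled red points passed the threshold (Col11a1, Col5a3, Col18a1), filled grey points did not pass although the lines of the genotypes do not overlap, and open diamonds mark genes whose lines overlap.

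Among fibrillar collagens the abundant chains differed little and of the minor chains 1 rose and 1 fell. Of 11 genes, all tested, 1 passed upward and 1 downward (0.809% and 1.1% over all genes). An unadjusted p below 0.05 was found for 6 (15.5% over all genes). DESeq2 called 3, Col11a1, Col5a3 and Col27a1 (5.81% over all genes). The median log2 fold change of the 11 genes was -0.04. Col11a1 (ENSMUSG00000027966, chromosome 3, 114030540 to 114220718) encodes a chain of type XI collagen, which starts fibrils in cartilage and can combine with type V chains. It was at 277, 294 and 367 CPM in SG1, SG2 and SG3 and at 168, 202 and 158 CPM in WT3, WT9 and WT11. Each SG line was above each WT line, with SG3 highest, and the gene was 1.78-fold higher in SG. From the fit, its log2 fold change was 0.83 ± 0.12 (SE), with an adjusted p = 0.0241. The call was lost without SG2 (adjusted p = 0.1), WT3 (adjusted p = 0.113) or WT11 (adjusted p = 0.102).

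The other chains of type XI were less uniform. Col2a1, whose product is the main cartilage collagen and also serves as a type XI chain, was at 20.8, 48.03 and 126 CPM in SG1, SG2 and SG3 and at 4.14, 24.7 and 19.2 CPM in WT3, WT9 and WT11. SG3 was far above the rest and SG1 lay within the WT range, so the genotypes overlapped (log2 fold change 2.01, SE 0.74, adjusted p = 0.242). Without SG3 its log2 fold change was 1.10. Its biological coefficient of variation, as estimated by edgeR, was 60.1%, the largest of the 36. Col11a2 was at 1.504, 1.52 and 1.13 CPM in the SG lines and 1.16, 1.25 and 1.02 CPM in the WT lines, and overlapped (log2 fold change 0.28, SE 0.19, adjusted p = 0.553). Without SG1 and WT9 the log2 fold change of Col2a1 was 2.87 (adjusted p = 0.0697).

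Col5a3 (ENSMUSG00000004098, chromosome 9, 20770050 to 20815067) encodes the least common of the type V chains. It was at 44.03, 28.6 and 34.9 CPM in SG1, SG2 and SG3 and at 66.4, 59.8 and 75.9 CPM in WT3, WT9 and WT11. The highest SG line was below the lowest WT line, and the gene was 1.88-fold lower in SG. From the fit, its log2 fold change was -0.91 ± 0.15 (SE), with an adjusted p = 0.0322. That call was lost without SG2 (adjusted p = 0.107), SG3 (adjusted p = 0.0688), WT3 (adjusted p = 0.119) or WT11 (adjusted p = 0.122). Col5a1, the chain present in most type V trimers, was at 1214, 1103 and 1288 CPM in the SG lines and 1351, 1334 and 1339 CPM in the WT lines. Its genotypes did not overlap, the difference was small and it did not pass (log2 fold change -0.16, SE 0.06, adjusted p = 0.218). Col5a2, its usual partner, was at 1444, 1356 and 1482 CPM in the SG lines and 1564, 1482 and 1861 CPM in the WT lines, with SG3 and WT9 almost level (log2 fold change -0.20, SE 0.08, adjusted p = 0.31).

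Type I collagen overlapped between genotypes. Col1a1 (ENSMUSG00000001506, chromosome 11, 94936224 to 94953042) was at 5889, 5453 and 6954 CPM in the SG lines and 5545, 5715 and 5602 CPM in the WT lines, and Col1a2 (ENSMUSG00000029661, chromosome 6, 4504814 to 4541544) at 4047, 3759.96 and 4783 CPM in the SG lines and 4010.5, 3948 and 3943 CPM in the WT lines. In both genes SG3 was the highest of the 6 lines and SG2 the lowest, with the WT lines close together between them. The differences were small and did not pass (log2 fold change 0.12, SE 0.08, adjusted p = 0.566, and log2 fold change 0.08, SE 0.08, adjusted p = 0.695). Col3a1, of skin and vessel walls, spread in the same order among SG lines at 546, 500.2 and 704 CPM in the SG lines, against 624, 567 and 614 CPM in the WT lines (log2 fold change -0.04, SE 0.12, adjusted p = 0.894).

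Col27a1, a fibrillar collagen of developing cartilage, was at 10.8, 5.86 and 5.97 CPM in the SG lines and 12.2, 13.3 and 12.8 CPM in the WT lines. The genotypes did not overlap, although SG1 was close to WT3, and the gene did not pass (log2 fold change -0.77, SE 0.22, adjusted p = 0.144). Without SG1 its adjusted p was 0.00211, and without SG1 and WT9 it was 0.00319. With any other single line left out it did not pass, and over all alternatives its adjusted p reached 0.388. Col24a1 stood between 0.768 and 1.63 CPM and overlapped (log2 fold change -0.42, SE 0.25, adjusted p = 0.484).

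**Figure D3:**
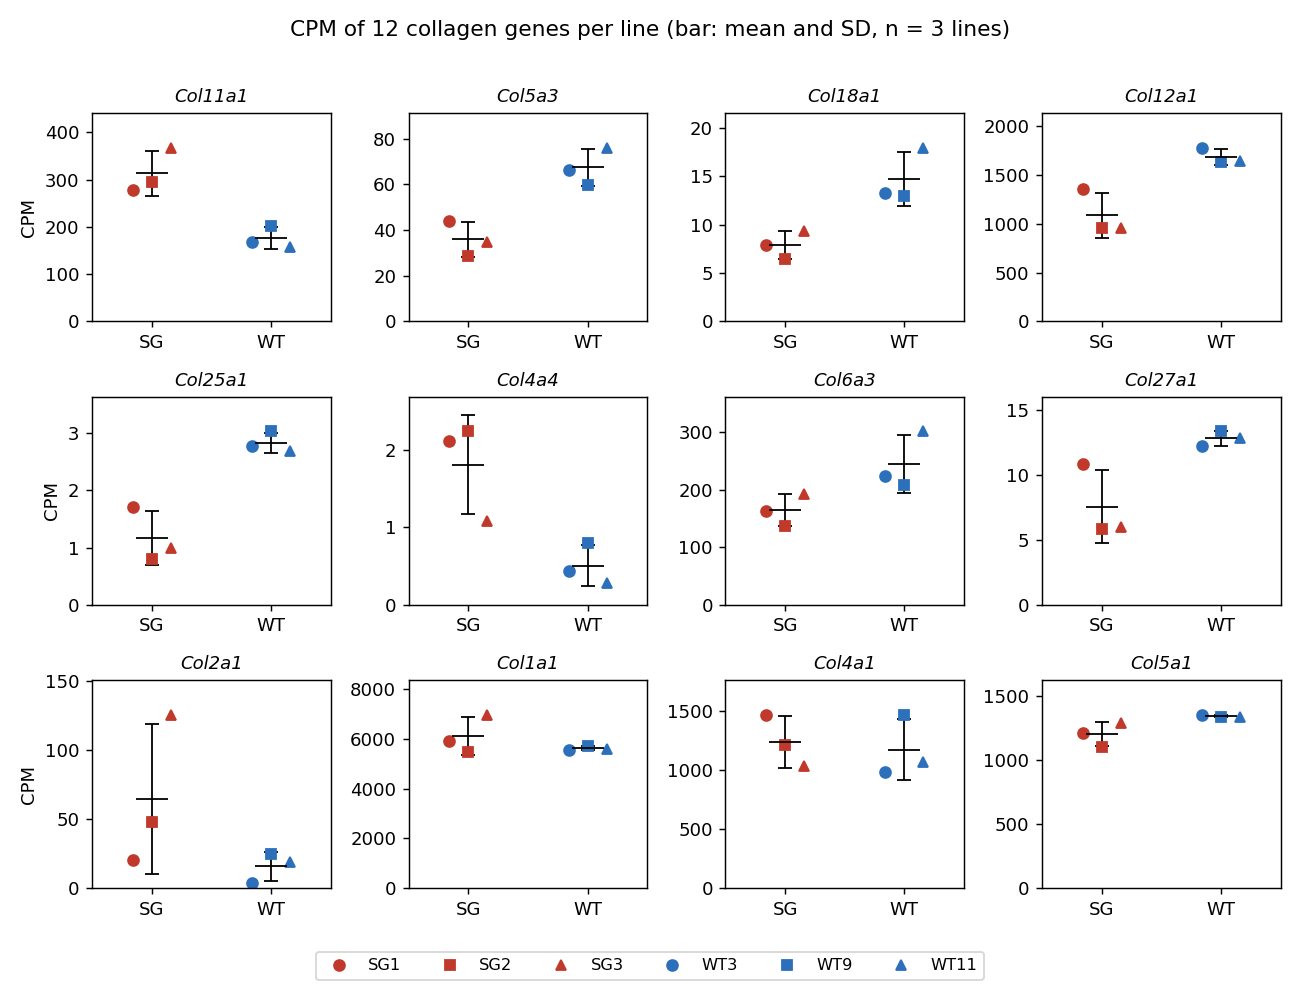
CPM of 12 collagen genes in each of the 6 lines, with the mean and SD of each genotype (n = 3 lines). In Col11a1 and Col4a4 the SG lines lie above the WT lines, in Col5a3, Col18a1, Col12a1, Col25a1, Col6a3, Col27a1 and Col5a1 below them, and in Col2a1, Col1a1 and Col4a1 the genotypes overlap.

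In the FACIT group 0 of 6 tested genes passed at the adjusted threshold in edgeR. Of these 6 genes, 2 had an unadjusted p below 0.05 (Col12a1 and Col19a1), against 15.5% of all genes. In DESeq2 1 of these 6 genes passed, Col12a1, against 5.81% of all genes. Col12a1 (ENSMUSG00000032332, chromosome 9, 79598991 to 79718831), which binds type I fibrils in tendon and under mechanical load, was by far the most abundant of them. It was at 1352, 959 and 952 CPM in SG1, SG2 and SG3 and at 1778, 1634 and 1644 CPM in WT3, WT9 and WT11. SG2 and SG3 were close together, SG1 lay between them and the WT lines, and the WT level was 1.55-fold that of SG (log2 fold change -0.63, SE 0.13, adjusted p = 0.0551). It passed without SG1 (adjusted p = 0.00152). Without SG2, SG3, WT3, WT9 or WT11 it did not pass (adjusted p up to 0.215).

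The remaining FACIT genes were lower in level. Col16a1, at 111, 99.8 and 119 CPM in the SG lines and 115, 112 and 106 CPM in the WT lines, was one of the steadiest collagen genes (log2 fold change -0.02, SE 0.07, adjusted p = 0.93). Col19a1, rare outside muscle and brain, was at 1.14, 1.93 and 2.19 CPM in the SG lines and 0.7802, 1.15 and 0.749 CPM in the WT lines. SG1 and WT9 were level (log2 fold change 0.97, SE 0.29, adjusted p = 0.15), and without SG1 its adjusted p was 0.0443. With any other single line left out Col19a1 did not pass, and over all alternatives its adjusted p reached 0.391. Col14a1, a fibril-surface collagen of skin and tendon, stood between 2.00 and 6.59 CPM, with WT9 and SG1 highest (log2 fold change 0.49, SE 0.43, adjusted p = 0.643). Col20a1 was at 0.489, 0.517 and 0.394 CPM in the SG lines and 0.3401, 0.382 and 0.2498 CPM in the WT lines, without overlap (log2 fold change 0.52, SE 0.26, adjusted p = 0.405). Col9a3 stood between 0.320 and 0.474 CPM and overlapped (log2 fold change 0.18, SE 0.25, adjusted p = 0.793).

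Type VI collagen, the beaded filament around cells, had 3 of 6 genes tested. Of these, 0 passed at the adjusted threshold in edgeR and 0 in DESeq2 (1.9% and 5.81% over all genes). All 3 had an unadjusted p below 0.05 (15.5% over all genes). Type VI chains fold together as 1 trimer, and all 3 had lower means in SG. Col6a1 was at 223, 211 and 308 CPM in the SG lines and 347, 282 and 359.9 CPM in the WT lines (log2 fold change -0.41, SE 0.15, adjusted p = 0.235). Col6a2 was at 140.2, 137 and 199 CPM in the SG lines and 245, 185 and 266 CPM in the WT lines (log2 fold change -0.55, SE 0.17, adjusted p = 0.178). Col6a3, the longest chain, was at 164, 136 and 193 CPM in the SG lines and 224, 209 and 302 CPM in the WT lines (log2 fold change -0.57, SE 0.16, adjusted p = 0.132). In each of them SG2 was lowest and WT11 highest. SG3 lay above WT9 for Col6a1 and Col6a2, and only in Col6a3 did the genotypes not overlap. Without SG3 the adjusted p of Col6a1 was 0.0455, and with any other single line left out it did not pass (adjusted p up to 0.526).

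Of the 6 basement membrane chains, all tested, 0 passed in edgeR at the adjusted threshold. Col4a3 and Col4a4 had an unadjusted p below 0.05, 2 of 6 against 15.5% of all genes. DESeq2 called 1, Col4a4, against 5.81% of all genes. The common network is made from Col4a1 (ENSMUSG00000031502, chromosome 8, 11198423 to 11312826) and Col4a2 (ENSMUSG00000031503, chromosome 8, 11312805 to 11449287). Col4a1 was at 1469.8, 1213 and 1036 CPM in the SG lines and 988, 1469.97 and 1068 CPM in the WT lines, and Col4a2 at 1058, 893 and 791 CPM in the SG lines and 748, 1055 and 773 CPM in the WT lines. The genotypes overlapped in both genes (log2 fold change 0.08, SE 0.17, adjusted p = 0.875, and log2 fold change 0.09, SE 0.15, adjusted p = 0.83). The Xist-expressing lines SG1 and WT9 were the highest of their genotypes in both genes and nearly level with each other. Among the other lines Col4a1 still overlapped, with SG3 below WT11, and Col4a2 did not. With Xist as a covariate, the log2 fold changes were 0.09 (adjusted p = 0.601) and 0.10 (adjusted p = 0.469). Whether Xist-expressing lines differ from the others in type IV collagen was not tested.

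Col4a3 and Col4a4, which with Col4a5 form the network of the kidney filter, were scarce and had higher means in SG. Col4a4 (ENSMUSG00000067158, chromosome 1, 82448423 to 82586849) was at 2.12, 2.24 and 1.08 CPM in SG1, SG2 and SG3 and at 0.4401, 0.795 and 0.283 CPM in WT3, WT9 and WT11. The lowest SG line, SG3, was above the highest WT line, WT9, and the gene missed the threshold (log2 fold change 1.82, SE 0.41, adjusted p = 0.0751). It passed without SG3 (adjusted p = 0.0484) or WT9 (adjusted p = 0.0376). Without SG1, SG2, WT3 or WT11 it did not pass (adjusted p up to 0.252). Col4a3 (ENSMUSG00000079465, chromosome 1, 82586921 to 82722059) was at 2.41, 2.46 and 1.42 CPM in the SG lines and 0.6602, 1.57 and 0.4996 CPM in the WT lines. There SG3 lay below WT9, so the genotypes overlapped (log2 fold change 1.18, SE 0.42, adjusted p = 0.229), and without WT9 its adjusted p was 0.0345. With any other single line left out Col4a3 did not pass (adjusted p up to 0.495). Part of the Col4a3 exon length, 5.65%, is shared with a transcript on the opposite strand, and the strand setting of the counting was not given in the sources used here.

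Col4a5 and Col4a6, the X-linked pair, overlapped. Col4a5 was at 74.6, 69.5 and 67.9 CPM in the SG lines and 84.6, 83.4 and 63.9 CPM in the WT lines (log2 fold change -0.13, SE 0.10, adjusted p = 0.617), and Col4a6 stood between 3.48 and 5.79 CPM (log2 fold change -0.22, SE 0.22, adjusted p = 0.687). Neither gene was higher in SG1 and WT9 than in every other line.

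Among chains of hexagonal networks 0 of 3 passed in edgeR at the adjusted threshold. Col8a1 and Col8a2 had an unadjusted p below 0.05, 2 of 3 against 15.5% of all genes. DESeq2 called 1, Col8a2, against 5.81% of all genes. Col8a1, of vessel walls and the cornea, was at 319, 331 and 349.7 CPM in the SG lines and 270.1, 322 and 240.4 CPM in the WT lines, and only WT9 reached the SG range (log2 fold change 0.26, SE 0.10, adjusted p = 0.242). Without WT9 its adjusted p was 0.0299, and with any other single line left out it did not pass (adjusted p up to 0.486). Col8a2, its partner, was at 2.07, 4.42 and 8.03 CPM in the SG lines and 2.22, 2.17 and 1.78 CPM in the WT lines. SG1 was level with the WT lines and SG3 was highest (log2 fold change 1.24, SE 0.43, adjusted p = 0.211), and without SG1 the adjusted p was 0.0209. With any other single line left out Col8a2 did not pass (adjusted p up to 0.48). Col10a1, a marker of hypertrophic cartilage, was at 2.19, 3.56 and 5.84 CPM in the SG lines and 6.602, 4.63 and 4.76 CPM in the WT lines. SG1 and SG2 were lowest and SG3 lay among the WT lines (log2 fold change -0.46, SE 0.32, adjusted p = 0.565).

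Of the multiplexins, collagens with interrupted helices that carry sugar chains, Col18a1 passed. Col18a1 (ENSMUSG00000001435, chromosome 10, 77052178 to 77166548) is found in basement membranes, and a fragment of its product is endostatin. It was at 7.88, 6.44 and 9.398 CPM in SG1, SG2 and SG3 and at 13.3, 12.96 and 17.95 CPM in WT3, WT9 and WT11. All SG lines were below all WT lines, WT11 was highest, and the gene was 1.87-fold lower in SG. From the fit, its log2 fold change was -0.90 ± 0.17 (SE), with an adjusted p = 0.046. The call was lost without SG1 (adjusted p = 0.0648), SG2 (adjusted p = 0.169), WT3 (adjusted p = 0.123) or WT11 (adjusted p = 0.129). Col15a1 was at 0.9604, 0.877 and 0.976 CPM in the SG lines and 1.54, 1.47 and 0.6495 CPM in the WT lines, with WT11 lowest of all (log2 fold change -0.37, SE 0.32, adjusted p = 0.636).

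Of 3 tested transmembrane collagens 0 passed in edgeR at the adjusted threshold. Of these 1, Col25a1, had an unadjusted p below 0.05 (15.5% over all genes) and passed in DESeq2 (5.81% over all genes). Col25a1 (ENSMUSG00000058897, chromosome 3, 130131501 to 130599877), a transmembrane collagen of neurons and developing muscle, was scarce, with each SG line below each WT line. It was at 1.703, 0.799 and 0.993 CPM in the SG lines and 2.78, 3.03 and 2.68 CPM in the WT lines. The genotypes did not overlap, the WT lines were close together, and the level was 2.44-fold lower, which missed the threshold (log2 fold change -1.29, SE 0.26, adjusted p = 0.0555). Without SG1 its adjusted p was 0.00586. It also passed without the count filter, with Xist as a covariate and without SG1 and WT9. With any other single line left out it did not pass, and over all alternatives its adjusted p reached 0.187. Col17a1, of the hemidesmosomes that fasten epithelia, was at 0.153 to 0.257 CPM and overlapped (log2 fold change 0.23, SE 0.32, adjusted p = 0.793). Col23a1 was at 0.308, 0.204 and 0.394 CPM in the SG lines and 0.3401, 0.2905 and 0.366 CPM in the WT lines, and overlapped as well (log2 fold change -0.14, SE 0.31, adjusted p = 0.874). Col7a1, the anchoring fibril of skin, was at 118, 67.8 and 54.1 CPM in the SG lines and 106, 113 and 69.4 CPM in the WT lines, with SG1, WT9 and WT3 high and SG3 lowest (log2 fold change -0.27, SE 0.29, adjusted p = 0.723). Col28a1 was at 1.03, 0.611 and 0.651 CPM in the SG lines and 0.4601, 0.5503 and 0.5996 CPM in the WT lines, which do not overlap (log2 fold change 0.50, SE 0.27, adjusted p = 0.44).

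The other 8 members did not pass the count filter and were not tested. Col6a4, Col6a5, Col6a6, Col9a1, Col9a2, Col13a1, Col22a1 and Col26a1 had between 0 and 22 counts in a line. Col6a6 and Col9a1 reached 22 counts in SG3. Col9a1, Col9a2 and Col9a3 build type IX collagen of cartilage, and of these Col9a3 alone was counted often enough to be tested.

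For types I and IV, ratios between the chains of a trimer varied less between lines than the levels of either chain. The ratio of Col4a1 to Col4a2, in CPM per kilobase, was 1.23, 1.2 and 1.16 in the SG lines and 1.17, 1.24 and 1.22 in the WT lines. Its range was 1.06-fold, whereas the levels of Col4a1 spanned 1.49-fold and those of Col4a2 1.41-fold. The ratio of Col1a1 to Col1a2 was 2.76, 2.75 and 2.75 in the SG lines and 2.62, 2.74 and 2.69 in the WT lines, a 1.05-fold range (1.28-fold and 1.27-fold for the levels) in which each SG line lay just above each WT line. With the longest coding transcript as length, the Col1a1 to Col1a2 ratio ran from 1.25 to 1.31, so its absolute value depends on the length used while its spread does not.

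For type VI, the ratio of Col6a1 to Col6a2 was 3.02, 2.93 and 2.93 in the SG lines and 2.68, 2.9 and 2.58 in the WT lines, with the SG lines all above the WT lines by a small step. This ratio had a 1.17-fold range, against 1.71-fold and 1.94-fold for the levels. Col6a3 to Col6a1 overlapped, between 0.229 and 0.307. The ratio of Col5a1 to Col5a2 was 0.95, 0.919 and 0.982 in the SG lines and 0.976, 1.02 and 0.813 in the WT lines, with WT11 apart from the rest. Its range, 1.25-fold, was no narrower than that of the level of Col5a1 (1.23-fold). None of these ratios was tested.

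The ratios of Col11a1 and of Col5a3 to Col5a1 had wider ranges. Col11a1 to Col5a1 was 0.152, 0.178 and 0.19 in the SG lines and 0.0828, 0.101 and 0.0787 in the WT lines, a 2.41-fold range with no overlap. Col5a3 to Col5a1 was 0.0452, 0.0324 and 0.0337 in the SG lines and 0.0613, 0.0559 and 0.0707 in the WT lines, also without overlap and in the opposite direction. Col3a1 to Col1a1 overlapped, between 0.0613 and 0.0753, a 1.23-fold range. Col4a3 to Col4a4 was lower in each SG line, 1.21, 1.17 and 1.4 in the SG lines and 1.6, 2.11 and 1.88 in the WT lines, so the means of the genotypes lay farther apart for Col4a4 than for its neighbour. The Col4a3 to Col4a4 and Col5a3 to Col5a1 ratios were added after the values were seen.

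**Figure D4:**
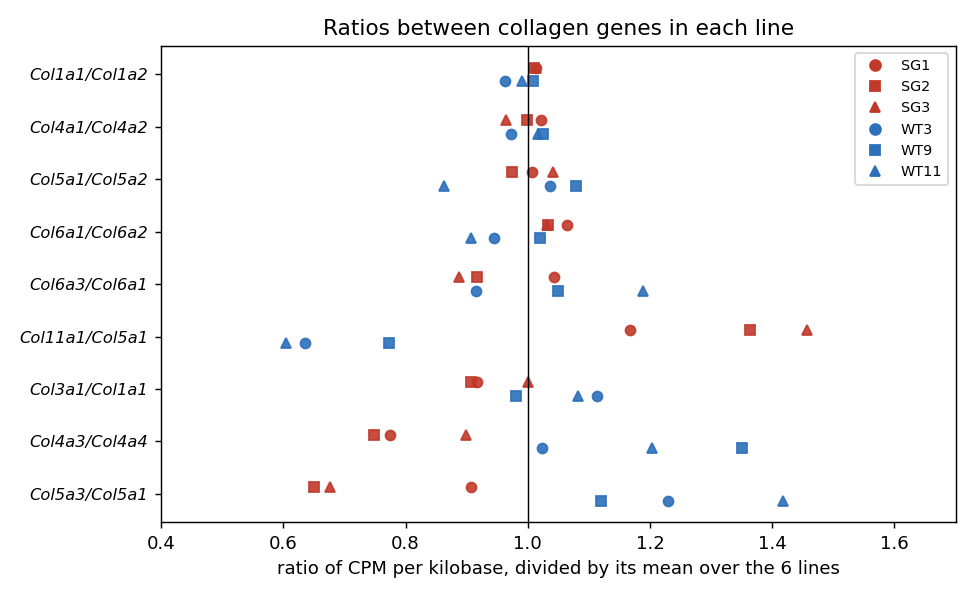
Ratio of CPM per kilobase between collagen genes in each line, divided by its mean over the 6 lines, with SG lines in red and WT lines in blue. Col1a1/Col1a2 and Col4a1/Col4a2 stay near 1 in each line, while Col11a1/Col5a1 is higher and Col5a3/Col5a1 lower in the SG lines.

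Several members are neighbours in the genome (GRCm38, positions as in the files). Col4a1 and Col4a2 on chromosome 8 are transcribed away from each other and their first exons share 22 bases (log2 fold changes of 0.08 and 0.09). Col4a3 and Col4a4 on chromosome 1 also start back to back, with 71 bases between them, and had log2 fold changes of 1.18 and 1.82. Col4a5 and Col4a6 lie 1308 bases apart on the X chromosome (-0.13 and -0.22). Col3a1 and Col5a2 face each other across 24614 bases (-0.04 and -0.20). In all 3 back-to-back pairs both log2 fold changes had the same sign, but only Col4a3 and Col4a4 lay well away from 0. The SE was 0.17 and 0.15 for Col4a1 and Col4a2, and 0.10 and 0.22 for Col4a5 and Col4a6. The signs of these values are therefore uncertain, and those of Col4a1 and Col4a2 turned without SG1.

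On chromosome 10, Col6a2, Col6a1 and Col18a1 follow each other on 1 strand, 85161 and 326009 bases apart, and all had lower means in SG (log2 fold changes of -0.55, -0.41 and -0.90). The other 17 tested genes from 500 kb before Col6a2 to 500 kb after Col18a1 had a median log2 fold change of -0.02. Of them 10 were below and 7 above 0, and 0 passed in edgeR at the adjusted threshold (1.9% over all genes). An unadjusted p below 0.05 was found for 3 (15.5% over all genes), and 1 passed in DESeq2 (5.81% over all genes). Of these 17 genes Adarb1 had the largest absolute log2 fold change and was lower in SG (-0.75, SE 0.16, adjusted p = 0.0578). Prmt2 was higher and Dip2a lower at an unadjusted p below 0.05 (log2 fold changes of 0.14 and -0.14). This window was chosen after the values were seen and was not tested.

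The sequences just before the start sites of the 3 genes past the threshold, and the short stretch between Col4a4 and Col4a3, are shown because the results above turn on these genes. They are from RefSeq's promoter table (GRCm38.p6), which matched 35 of the 44 genes with 38 start sites, and run 5′ to 3′ along the named gene's strand. Capitals mark a GC box (GGGCGG, bound by Sp1), a CCAAT box (CCAAT) or a TATA box (TATAAA), searched on both strands. Bases inside the annotated first exon of Col18a1 were left out.
Col11a1: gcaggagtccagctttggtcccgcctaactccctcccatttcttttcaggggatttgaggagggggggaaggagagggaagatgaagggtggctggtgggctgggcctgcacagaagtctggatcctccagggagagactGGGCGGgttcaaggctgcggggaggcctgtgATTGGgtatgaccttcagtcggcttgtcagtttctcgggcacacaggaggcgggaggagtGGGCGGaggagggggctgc
Col5a3: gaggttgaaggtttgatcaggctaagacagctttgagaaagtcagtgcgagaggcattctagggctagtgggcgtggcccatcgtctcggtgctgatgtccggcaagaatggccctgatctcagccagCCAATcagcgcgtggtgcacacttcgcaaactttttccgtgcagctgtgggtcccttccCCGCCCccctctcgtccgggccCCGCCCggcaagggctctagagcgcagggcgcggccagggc
Col18a1: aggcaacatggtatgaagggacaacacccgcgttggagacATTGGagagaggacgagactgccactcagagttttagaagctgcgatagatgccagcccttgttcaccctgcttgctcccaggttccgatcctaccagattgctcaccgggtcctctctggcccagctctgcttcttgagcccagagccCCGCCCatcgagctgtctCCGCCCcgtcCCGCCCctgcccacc
Col4a4 to Col4a3: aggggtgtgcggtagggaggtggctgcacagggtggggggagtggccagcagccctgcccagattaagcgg

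The Col11a1 stretch lies at chr3:114030290-114030539 on the plus strand, that of Col5a3 at chr9:20815068-20815317 on the minus strand, that of Col18a1 at chr10:77166549-77166780 on the minus strand and that between Col4a4 and Col4a3 at chr1:82586850-82586920 on the minus strand. Col11a1 held GC boxes 110 and 19 bases before the start and a CCAAT box 79 before it. Col5a3 held GC boxes 63 and 41 bases and a CCAAT box 122 bases before its start, and Col18a1 had 3 GC boxes between 61 and 33 bases and a CCAAT box 210 bases before the upstream of its starts. The stretch of 71 bases between Col4a4 and Col4a3 held none of these letters, and its GC content was 69.0%. GC and CCAAT boxes were thus present both at Col11a1, which rose, and at Col5a3 and Col18a1, which fell.

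In the 250 bases before a start site, a GC box was present in 22 of 38 collagen windows (57.9%) against 32.7% of all 32851 windows in the table. A CCAAT box was in 34.2% against 33.8%, and a TATA box in 13.2% against 12.4%. Windows with a TATA box belonged to Col10a1, Col11a2, Col13a1, Col17a1 and Col3a1, and of these only Col3a1 was above 10 CPM. These matches describe letters and were not tested.

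Genes that modify, secrete, cut and bind collagen were read from the same test. Of 23 genes of chain modification and folding, such as the prolyl and lysyl hydroxylases, 0 passed at the adjusted threshold in edgeR (median log2 fold change 0.03). An unadjusted p below 0.05 was found for 6 (15.5% over all genes), and 2 passed in DESeq2 (5.81% over all genes). Of 12 tested genes of propeptide processing and crosslinking 1 passed as higher and 0 as lower in edgeR (0.809% and 1.1% over all genes), 7 had an unadjusted p below 0.05 (15.5% over all genes), and 5 passed in DESeq2 (5.81% over all genes). The 1 was Tll1, a tolloid protease related to the enzyme that cuts the end of procollagen, at 267, 331 and 273 CPM in the SG lines and 167, 212 and 153 CPM in the WT lines (log2 fold change 0.71, SE 0.13, adjusted p = 0.0422). Of 9 tested collagen receptors 0 passed in edgeR at the adjusted threshold and 0 in DESeq2 (5.81% over all genes), and 1 had an unadjusted p below 0.05 (15.5% over all genes).

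Of 15 matrix partners of fibrils 4 passed as higher and 0 as lower, where 0.809% and 1.1% of all genes did. Of these partners 9 had an unadjusted p below 0.05 (15.5% over all genes) and 8 passed in DESeq2 (5.81% over all genes). Their median log2 fold change was 0.37 against 0.00 over all genes tested. Fn1, which encodes fibronectin, was at 9483, 8720.5 and 8450.4 CPM in the SG lines and 6694, 7212 and 6265 CPM in the WT lines (log2 fold change 0.40, SE 0.07, adjusted p = 0.0308), and the basement membrane fibulin gene Fbln2 at 2335, 2573 and 2459 CPM in the SG lines and 1867, 1976 and 1943 CPM in the WT lines (log2 fold change 0.35, SE 0.05, adjusted p = 0.018). Hspg2, which encodes the basement membrane proteoglycan perlecan, was at 1005, 928 and 1027 CPM in the SG lines and 782, 811 and 722 CPM in the WT lines (log2 fold change 0.36, SE 0.06, adjusted p = 0.0289). Sparc, a collagen-binding protein, was at 2019.8, 1962 and 2307 CPM in the SG lines and 1567, 1649 and 1579 CPM in the WT lines (log2 fold change 0.39, SE 0.06, adjusted p = 0.0295). In each of these 4 genes all SG lines were above all WT lines. Postn, which encodes the matrix protein periostin and was picked after its values were seen, lay the other way without overlap and did not pass, at 830.3, 569 and 591 CPM in the SG lines and 1199, 932 and 1058 CPM in the WT lines (log2 fold change -0.68, SE 0.15, adjusted p = 0.0704). Of 9 tested genes of collagen cleavage 1 passed as higher and 1 as lower (0.809% and 1.1% over all genes). An unadjusted p below 0.05 was found for 5 (15.5% over all genes), and 2 passed in DESeq2 (5.81% over all genes). Mmp2, which digests denatured and type IV collagen, was higher at 223, 255 and 286 CPM in the SG lines and 119, 175 and 142 CPM in the WT lines (log2 fold change 0.81, SE 0.14, adjusted p = 0.0362). Ctsk, the collagen-degrading cathepsin K, was lower at 17.2, 12.6 and 14.2 CPM in the SG lines and 30.2, 25.2 and 29.5 CPM in the WT lines (log2 fold change -0.94, SE 0.12, adjusted p = 0.0166).

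Of 29 factors known to act on collagen genes 0 passed as higher and 2 as lower in edgeR, against 0.809% and 1.1% of all genes. An unadjusted p below 0.05 was found for 9 (15.5% over all genes), and 4 passed in DESeq2 (5.81% over all genes). Foxf2, a forkhead factor of mesenchyme, was at 4.55, 4.75 and 3.95 CPM in the SG lines and 6.62, 7.69 and 8.39 CPM in the WT lines (log2 fold change -0.78, SE 0.12, adjusted p = 0.0271), and Prrx1, a homeobox factor of limb mesenchyme, at 289, 278 and 346 CPM in the SG lines and 434, 399 and 401 CPM in the WT lines (log2 fold change -0.43, SE 0.08, adjusted p = 0.0445). Sox5, which acts with Sox9 in cartilage and was picked after its values were seen, was at 1.59, 2.01 and 3.82 CPM in the SG lines and 1.04, 0.688 and 1.17 CPM in the WT lines, with no overlap and SG3 highest, as for Col2a1, and did not pass (log2 fold change 1.36, SE 0.36, adjusted p = 0.112). Without SG2, WT3 or WT11 none of these 9 called partners, enzymes and factors passed (adjusted p from 0.0695 to 0.17). Calls were also lost without SG1 for Fn1, without SG3 for Hspg2, without SG3 or with a robust prior for Tll1 and Mmp2, and without SG3 or without SG1 and WT9 for Foxf2. Prrx1 lost its call in 8 of 13 alternatives, upper quartile scaling (adjusted p = 0.0532) among them.

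Markers of cartilage were set beside Col11a1 and Col2a1. Of 9 chondrocyte markers 5 were tested and 0 passed at the adjusted threshold in edgeR. Of these markers 1, Acan, had an unadjusted p below 0.05 (15.5% over all genes) and passed in DESeq2 (5.81% over all genes). The 9 markers summed to 35.5 to 45.0 CPM in SG and 27.1 to 30.9 CPM in WT. Acan, the cartilage proteoglycan aggrecan, was at 11.8, 17.96 and 13.3 CPM in the SG lines and 3.601, 7.49 and 7.81 CPM in the WT lines (log2 fold change 1.18, SE 0.28, adjusted p = 0.0855). Matn1, Snorc and Ucma were at 0 in each line, and Sox9 was between 17.0 and 21.5 CPM. SG3, the line highest in Col2a1, was not the highest in the marker sum, most of which was Sox9 and Acan. Of the scarcer markers, Comp was highest in SG3 (0.890 CPM, next WT11 at 0.466) and Hapln1 in WT11 (1.28 CPM, next SG3 at 0.993). The part of cartilage-like cells in Col11a1 and Col2a1 was not tested.

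Of 8 osteoblast markers 2 were tested and 0 passed in edgeR or DESeq2 (1 at an unadjusted p below 0.05), and Sp7 stood between 0.0800 and 0.183 CPM. For endothelial cells, which make type IV and type XVIII collagen, the summed level of 8 markers was 53.1 to 72.6 CPM in SG and 39.5 to 54.5 CPM in WT. These ranges overlap, 6 of the 8 were under 1 CPM in every line, and 0 of 5 tested passed in edgeR (1 at an unadjusted p below 0.05, and 1 in DESeq2). The 7 smooth muscle and pericyte markers summed to 4731 to 5463 CPM in SG and 4596 to 5653 CPM in WT, with 0 past the threshold in edgeR or DESeq2 and 1 at an unadjusted p below 0.05. Of the tested epithelial (6), skeletal muscle (3), Schwann (3) and macrophage (6) markers, 0 passed in edgeR at the adjusted threshold. Their counts at an unadjusted p below 0.05 were 3, 1, 0 and 0, and DESeq2 called 1 epithelial marker, Krt14. Over all genes tested, 15.5% had an unadjusted p below 0.05 and 5.81% passed in DESeq2.

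Keratins of basal epithelium, picked after their values were seen, were highest in SG1 and SG2, which were also the lines highest in Col4a3 and Col4a4. Krt5 had 162, 107 and 0 counts in the SG lines and 0 in each WT line, and did not pass the count filter. Krt14 was at 0.779, 1.504 and 0.308 CPM in the SG lines and 0.1600, 0.0917 and 0.266 CPM in the WT lines, without overlap (log2 fold change 2.33, SE 0.63, adjusted p = 0.122). Of the 6 tested epithelial markers 5 had a log2 fold change above 0 and 1, Krt19, below 0 (-0.42, SE 0.17, adjusted p = 0.288). Krt19 was highest in WT9 and WT3 (70.5 and 67.1 CPM). The genotypes overlapped for Krt8, Krt18, Krt19 and Cldn4. The 8 epithelial markers summed to 54.1 to 104.9 CPM in SG and 69.8 to 96.5 CPM in WT, with SG3 lowest. The part of epithelial cells in Col4a3 and Col4a4 was not tested.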

How the data were processed

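Polyadenylated RNA of 6 fibroblast lines was sequenced. The deposited values are raw counts of reads per gene, made by the authors with Trimmomatic 0.36, STAR 2.5.2b and featureCounts of Subread 1.5.2 on GRCm38, per the submitters' processing notes, which also name DESeq2. How strand and reads with several matches were treated was not given in the sources used here. Reads of overlapping or similar genes could therefore be split differently.

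Identifiers were matched to GENCODE M21 symbols. Counts were filtered by filterByExpr, scaled by TMM and tested with edgeR 4.0.16 (R 4.3.3), 3 SG against 3 WT lines, 2-sided, no covariate, with Benjamini-Hochberg adjustment over 16068 genes at 0.05. The procedure was tested on simulated data. The SE was taken from the fold change and the square root of the F statistic. P-values measure the spread between these lines. CPM used TMM-scaled totals of the filtered genes, and depth was 49317925 to 65457242 counts per line.

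Alternatives were RLE and upper quartile scaling, no filter, DESeq2 1.42.0, a robust prior, each line left out, SG1 and WT9 left out, and Xist as a covariate.

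The collagen genes, the gene lists and the choice of alternatives were made with earlier results of these data known. Values in every line were given for members past the threshold, the 2 most abundant tested members of each assembly type, the 6 next smallest p-values, members without overlap and an absolute log2 fold change of at least 0.5, and their partner chains. Other members were given by ranges and counts, except Col3a1, whose values in every line were added. List genes were named where they passed. Postn, Sox5, Krt5 and Krt14 were picked after their values were seen, and other markers were named to describe their lists.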

Additional observations from a re-analysis of the deposited data

How the results depend on the processing

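Under RLE and upper quartile scaling the collagen calls were the same 3 genes, Col11a1, Col5a3 and Col18a1, and these 3 kept their direction under all alternatives run. Without the count filter 5 collagen genes were higher and 8 lower, and 959 genes passed in all. DESeq2 called 3 higher, 5 lower and 934 in all. With a robust prior 0 were higher and 0 lower. Without SG1 and WT9 the counts were 6, 5 and 703, and with Xist as a covariate 2 and 5 collagen genes passed. Leaving out each line in turn gave 0 to 4 higher, 0 to 4 lower, and 3 to 579 genes in all. The cause of these shifts was not tested. The difference in collagen share of counts, SG minus WT, was -0.0276 percentage points and ran from -0.0995 to 0.0617 with a line left out. Near-zero log2 fold changes turned sign when a line was left out, over ranges of -0.0233 to 0.16 (Col1a2, negative without SG3), -0.20 to 0.0560 (Col3a1, positive without SG1 or SG2), -0.0630 to 0.27 (Col4a1, negative without SG1 or WT3), -0.0282 to 0.26 (Col4a2, negative without SG1), -0.0796 to 0.0480 (Col16a1, positive without SG2 or WT3) and -0.38 to 0.0844 (Col23a1, positive without SG2). No paired analysis was run, because whether any SG and WT embryos were littermates was not given in the sources used here. For the tested members below 1 CPM in every line (Col9a3, Col17a1, Col20a1, Col23a1), the SE was 0.25 to 0.32 on the log2 scale, which limits the differences that could be detected.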
